A study of Caenorhabditis elegans with 11 samples.

Results

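The retained intron events of this study were all 557 rows of type RI among the 3096 splicing events that the authors deposited. A row was chosen by its event type alone, whichever comparison it passed. In a retained intron event, an intron that is removed from some transcripts of a gene stays in others, so that the flanking exons and the intron form a single long exon. Each event carries an inclusion level difference, described by the authors as a fractional difference between splicing events, and a false discovery rate q-value.

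The study asked how transcripts and splicing differ when SACY-1 is removed from young adult Caenorhabditis elegans. The soma-depleted worms (3 samples, strain DG4703) carried the degron allele sacy-1(tn1880), tagged with aid, gfp and myc, together with ieSi57, which makes the auxin receptor TIR1 from the eft-3 promoter. The germline-depleted worms (3 samples, strain DG4700) carried the same allele with ieSi64, which makes TIR1 from the gld-1 promoter. The soma controls (2 samples here, replicates 1 and 3, strain CA1200) and the germline controls (3 samples, strain CA1352) carried ieSi57 or ieSi64 without the degron allele, and both control strains also carried unc-119(ed3), which the depleted strains do not list. Auxin at 2 mM was given to all 4 groups, controls included, for 24 hours at 20 °C, and RNA was prepared from lysates of whole animals. Depletion acts on the SACY-1 protein, and sacy-1 is not among the genes with expression values used here, so the RNA gives no check of it. Soma and germline therefore name the cells with TIR1, not an isolated tissue. A further comparison in the table, of sperm with oocyte data from another study, used none of these samples.

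Introns are removed by the spliceosome, which recognises the 5 prime splice site, the branch point and the 3 prime splice site and joins the exons in a pair of chemical steps. SACY-1 is the worm counterpart of the human DEAD-box helicase DDX41, a spliceosome-associated protein. Many C. elegans introns are very short. A retained intron can add amino acids, shift the reading frame or bring in an early stop codon, and transcripts with an early stop codon are often degraded by nonsense-mediated decay.

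All differences and q-values below are those of the authors' deposited table. An event is called where its q-value is under 0.05. Coordinates are those of the whole listed interval, flanking exons included. A length given for an intron is that of the annotated intron within it. Neither the form counted as included nor the order of subtraction is stated in these sources. A positive sign therefore cannot be read as more retention after depletion, and signs are given as deposited. The table holds no values per sample, so depth and replicate spread are unknown. Only events with a q-value under 0.05 in some comparison are listed, so a share of called events is a share of a selected list. Strain background differs together with depletion in both comparisons and cannot be told apart from it. In whole-animal RNA, a difference in the number of cells of a type and a difference in the RNA of each cell cannot be told apart either.

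Soma depletion gave the larger number of called retained introns, and their signs were mixed. Of 542 retained intron events with a soma q-value, 283 were called (52.2%), beside 53.1% of the 3026 events of all types. Positive differences were found in 162 events and negative ones in 121, so that 57.2% were positive. Over all called events of every type, 22.3% were positive, and among alternative 3 prime splice sites, the most numerous type, 7.42% were. Mixed signs were also found among alternative 5 prime splice sites (44.3% positive), mutually exclusive exons (5 of 10 calls) and skipped exons (31.2%). Called events with a positive sign made up 11.8% of all events with a soma q-value, and those with a negative sign made up 41.2%. The median difference of the 283 retained introns was 0.049, with a median size of 0.202 regardless of sign, against -0.127 and 0.18 over all called events. The called values ran from -0.713 to 0.7. A size of at least 0.2 was reached by 144 of the 283 events, and 41 stayed under 0.05.

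Germline depletion gave 150 called retained introns of 538 with a germline q-value (27.9%), beside 26.5% of 3002 events of all types. Here 79 were positive and 71 negative, a positive share of 52.7%, against 31.2% over all called events, 14.2% of alternative 3 prime splice sites, 48.3% of alternative 5 prime splice sites, 52.3% of skipped exons and 63.6% of mutually exclusive exons. Positive and negative calls made up 8.26% and 18.3% of all events with a germline q-value. The median size was 0.161, against 0.129 over all called events, and the values ran from -0.644 to 0.67. With a minimum size of 0.1, 48.5% of the germline events were positive, so neither sign was in the majority under every setting. The sperm and oocyte comparison called 193 of 392 retained introns (49.2%), beside 65.0% of 2460 events. Of these, 117 were positive and 76 negative (60.6% positive, against 74.4% over all called events). By type, 93.9% of alternative 3 prime splice sites, 47.1% of alternative 5 prime splice sites and 30.2% of skipped exons were positive. Of mutually exclusive exons, 26 of 50 calls were positive. Positive calls made up 48.4% and negative calls 16.6% of all events with a value in that comparison. The positive retained introns had a median of 0.19 and the negative ones a median of -0.07. Among the events that match an annotated intron, the positive share was 46.9%, so the majority sign of this comparison turned.

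**Figure D1:**
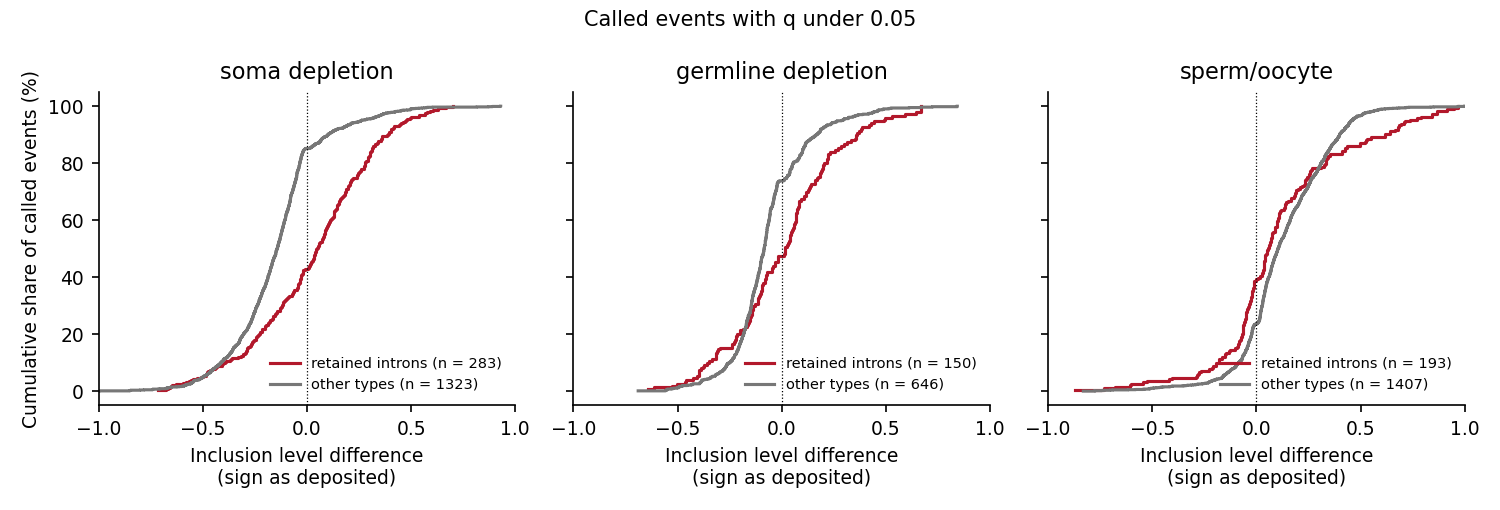
Cumulative share of called events (vertical axis, percent) by inclusion level difference (horizontal axis, a difference of fractions with its deposited sign) for retained introns in red and all other event types in grey, in the 3 comparisons. The retained introns cross 0 near the middle of their range in both depletion comparisons (57.2% and 52.7% positive), whereas the other types pooled, most of them alternative 3 prime splice sites, lie mostly below 0 (14.8% and 26.2% positive).

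**Figure D2:**
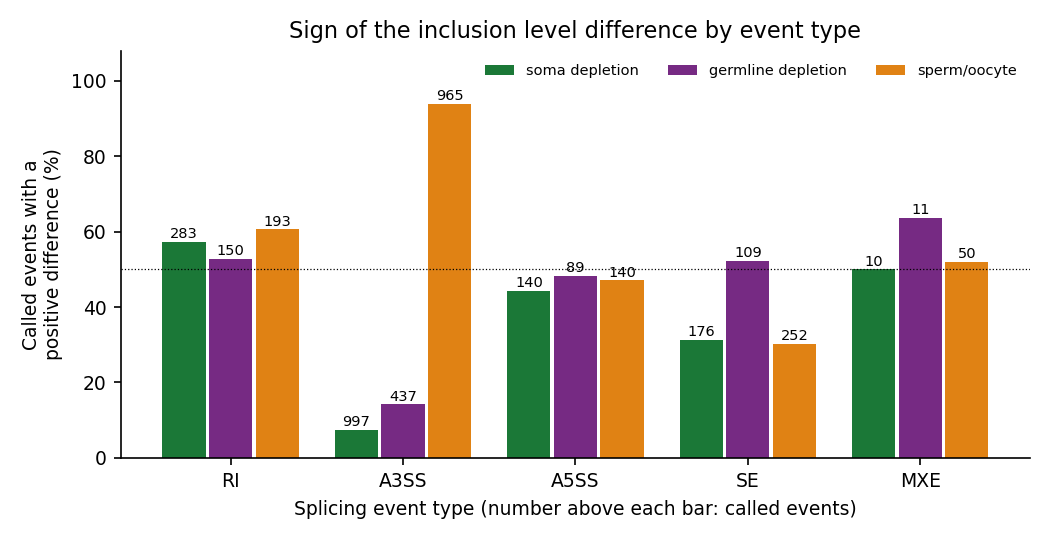
Share of called events with a positive difference (vertical axis, percent) for each event type and comparison, with the number of called events above each bar and a dotted line at 50 percent. Alternative 3 prime splice sites (A3SS) run from 7.42% in the soma to 93.9% in the sperm and oocyte comparison, while retained introns (RI) stay between 52.7% and 60.6%; the other types are alternative 5 prime splice sites (A5SS), skipped exons (SE) and mutually exclusive exons (MXE).

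A soma q-value listed as 0 was given to 8 retained introns. The 5 of them with the largest soma differences each matched an intron of the annotation, and their germline differences lay between -0.013 and 0.014. In T10B10.4 the event lay at the third of 7 introns, which is 56 bp long (interval on chromosome X, 15190463 to 15190663, build WBcel235). Its difference was -0.507 in the soma and 0.014 in the germline. In btb-17, which encodes a BTB-domain protein, the event had -0.443 in the soma and -0.013 in the germline. It lay at the second of 3 introns, which is 52 bp long (interval on chromosome II, 3295625 to 3296221). The event in gbh-2, a gene of the gamma-butyrobetaine hydroxylase family, had 0.239 in the soma and 0.005 in the germline. For the saposin-like gene spp-22 these values were -0.187 and 0.006, and for F53F1.6 they were 0.186 and -0.007. None of the 5 germline values passed. The other soma differences with a q-value listed as 0 were smaller, at -0.11 in prdx-6, -0.064 in lec-9 and 0.058 in D1086.11. Of these, prdx-6 was called in the germline too, and lec-9, named after its values were seen, had -0.528 there with a q-value of 1.

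The 10 largest positive soma differences ran from 0.539 to 0.7. They lay in Y6G8.2 (0.7, q = 4.28e-05), K05F6.4 (0.667), the chemoreceptor genes srw-85 (0.629) and srx-84 (0.603), the ammonium transporter gene amt-2 (0.628), F26F12.3 (0.59), the R10E8 cluster (0.576), the acyl-CoA synthetase gene acs-22 (0.569, q = 5.72e-09), Y71A12B.13 (0.567) and E03H4.8 (0.539). Chemoreceptors of these families are receptors through which sensory neurons detect odours and other compounds. The srx-84 event lies at the third of 4 introns, which is 42 bp long, and the amt-2 event at the fourth of 9 introns, which is 68 bp long.

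The 10 largest negative soma differences ran from -0.713 to -0.566. They lay in C16C8.13 and C16C8.12 (-0.713), the F-box genes fbxb-83 and fbxb-84 (-0.677), the chemoreceptor genes srd-70 (-0.667) and str-253 (-0.629), Y53H1A.2 (-0.658), fli-1 (-0.653), C31H5.1 (-0.65), T01D3.3 (-0.597), the neuropeptide receptor gene npr-7 (-0.583, q = 5.91e-08) and T24B8.4 (-0.566). F-box proteins bring substrates to ubiquitin ligases, and fli-1 is the worm flightless gene, a relative of gelsolin that acts on actin. The npr-7 event lay at the third of 8 introns, which is 55 bp long (interval on chromosome X, 9318153 to 9318507).

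In the germline comparison the largest positive difference was in bud-31, the worm counterpart of a spliceosome protein. The bud-31 event (chromosome III, 9696123 to 9696517) had 0.67 in the germline with q = 3.55e-06, and -0.259 in the soma, which did not pass (q = 0.326). It lies inside an exon of the annotation, so the retained form is the annotated one and the spliced form is not annotated. The event across fbxb-83, T17A3.12 and fbxb-84 (0.667), F26D2.3 (0.667), C05E4.15 (0.647), F35E12.13 and F35E12.6 (0.591), T01D3.3 (0.528), the chemoreceptor gene str-7 (0.496), W08E3.4 (0.493), grl-3 (0.443) and T05A7.13 (0.427) completed the 10 largest positive values. For T05A7.13 all 3 of its retained introns were called in the germline, with 0.427, 0.299 and 0.216, and none in the soma (0.068, 0.025 and -0.003). The third of these intervals overlaps both others, so they can share reads.

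The largest negative germline difference was in the chemoreceptor gene srz-24 (-0.644, q = 0.00265). F25H2.4 (-0.614), F53F4.12 and F53F4.14 (-0.525), rib-1 with F12F6.1 (-0.501), the chemoreceptor gene srh-39 (-0.464), amt-2 (-0.461), K04A8.2 (-0.425), unc-43 (-0.405), T19D12.1 (-0.398) and C16C8.21 with C16C8.14 (-0.398) followed. The gene unc-43 encodes the calcium and calmodulin dependent kinase CaMKII of neurons and muscle, and rib-1 encodes an enzyme of heparan sulfate synthesis. The rib-1 and F25H2.4 events were negative in the sperm and oocyte comparison too (-0.281 with q = 3.14e-10, and -0.151 with q = 0.0361). The smallest germline q-value, listed as 0, was at the peroxiredoxin gene prdx-6, where the difference was -0.041, and the next was at Y54G2A.36 (-0.185, q = 4.64e-12).

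**Figure D3:**
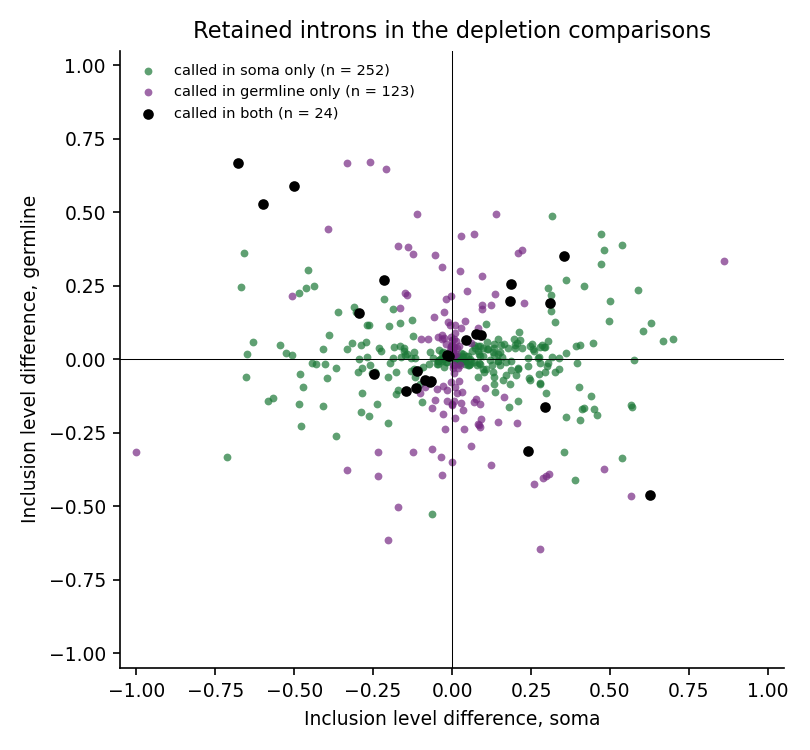
Inclusion level difference in the soma (horizontal axis) against the germline (vertical axis) for retained introns with a value in both comparisons; points are events called in the soma only (252, green), in the germline only (123, purple) or in both (24, black). Most events called in only the soma lie along the horizontal axis and most called in only the germline along the vertical axis, and the black points of large size lie mainly in the quadrants of opposite sign.

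Few retained introns were called in both depletion comparisons. There were 24 such events, which is 8.48% of the soma calls and 16.0% of the germline calls. Over all event types the shared calls were 14.7% of the soma and 29.6% of the germline calls (7.94% of the events with both q-values). For alternative 3 prime splice sites they were 20.7% and 47.1%. Shares were lower than among retained introns for alternative 5 prime splice sites (2.86% and 4.49%) and skipped exons (1.14% and 1.83%). No mutually exclusive exon was shared. The 24 split into 14 with the same sign and 10 with opposite signs (58.3% the same), against 207 and 29 over all types (87.7% the same). The same sign was found in 191 of the 206 shared alternative 3 prime splice sites. Of shared alternative 5 prime splice sites and skipped exons it was found in 1 of 4 and 1 of 2. Of the 276 soma calls with a germline value, 199 had a germline difference smaller than 0.1 in size. Of the 147 germline calls with a soma value, 92 had a soma difference smaller than 0.1 in size. The median size in the other comparison was 0.044 for soma calls and 0.069 for germline calls. Over all types these medians were nearly the same, at 0.043 and 0.0685. Among soma calls with a germline value, 143 of 276 (51.8%) had the same sign there, whether or not they passed, against 63.9% over all types. By type it was 71.5% for alternative 3 prime splice sites and 48.6% for alternative 5 prime splice sites. For skipped exons it was 52.9%, and for mutually exclusive exons 66.7%. The soma and germline comparisons have separate controls.

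The shared events with the largest differences mostly had opposite signs. In 7 shared events the size was at least 0.2 in both comparisons, and 6 of these had opposite signs. Over all types, these 7 included, 12 of 28 such events did. Opposite signs were found in 3 of 18 such alternative 3 prime splice sites. They were also found in 2 of 2 alternative 5 prime splice sites and 1 of 1 skipped exons. This split by size was chosen after the values were seen. The amt-2 event (chromosome IV, 13044964 to 13045424) had 0.628 in the soma (q = 7.06e-05) and -0.461 in the germline (q = 3.55e-06). The event across fbxb-83, T17A3.12 and fbxb-84 (chromosome III, 144486 to 146336) had -0.677 and 0.667. For T01D3.3 the soma and germline values were -0.597 and 0.528. Its event lies at the sixth of 11 introns, which is 50 bp long (interval on chromosome V, 13708013 to 13708396). The event of F35E12.13 and F35E12.6 had -0.499 and 0.591, C29F7.1 had -0.216 and 0.27, and srz-64 had 0.242 and -0.311. F45H10.5 was the exception, with 0.353 in the soma and 0.35 in the germline. Its event lies at the last intron, 975 bp long, in the 3 prime UTR (interval on chromosome II, 13502426 to 13503822). The difference between the comparisons was not tested, since no values per sample are used here.

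Of the shared events under that size in either comparison, 13 of 17 had the same sign (76.5%), against 191 of 208 over all types (91.8%). Most of these were alternative 3 prime splice sites, where 176 of 188 had the same sign. Among alternative 5 prime splice sites and skipped exons 1 of 2 and 1 of 1 did. The event in mes-3, which encodes a subunit of the worm Polycomb repressive complex of the germline, had 0.182 and 0.198 (q = 0.000237 and 4.89e-05; chromosome I, 5002156 to 5003161). R74.8 had 0.077 and 0.085. The F-box gene fbxc-45 had 0.188 and 0.255, and the nuclear hormone receptor gene nhr-110 had 0.31 and 0.193. Negative in both were prdx-6 (-0.11 and -0.041), F41H10.3 (-0.146 and -0.107), the event of Y116F11B.17 and linc-51 (-0.247 and -0.049) and pen-2 (-0.086 and -0.071), which encodes a subunit of gamma-secretase, the protease that cleaves Notch receptors. M04C3.1 had 0.293 and -0.161. The event in unc-119 had 0.043 and 0.066. Both control strains carry a C. briggsae unc-119 copy and unc-119(ed3), and the depleted strains do not list unc-119(ed3). Genotype and depletion therefore cannot be told apart at this gene.

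**Figure D4:**
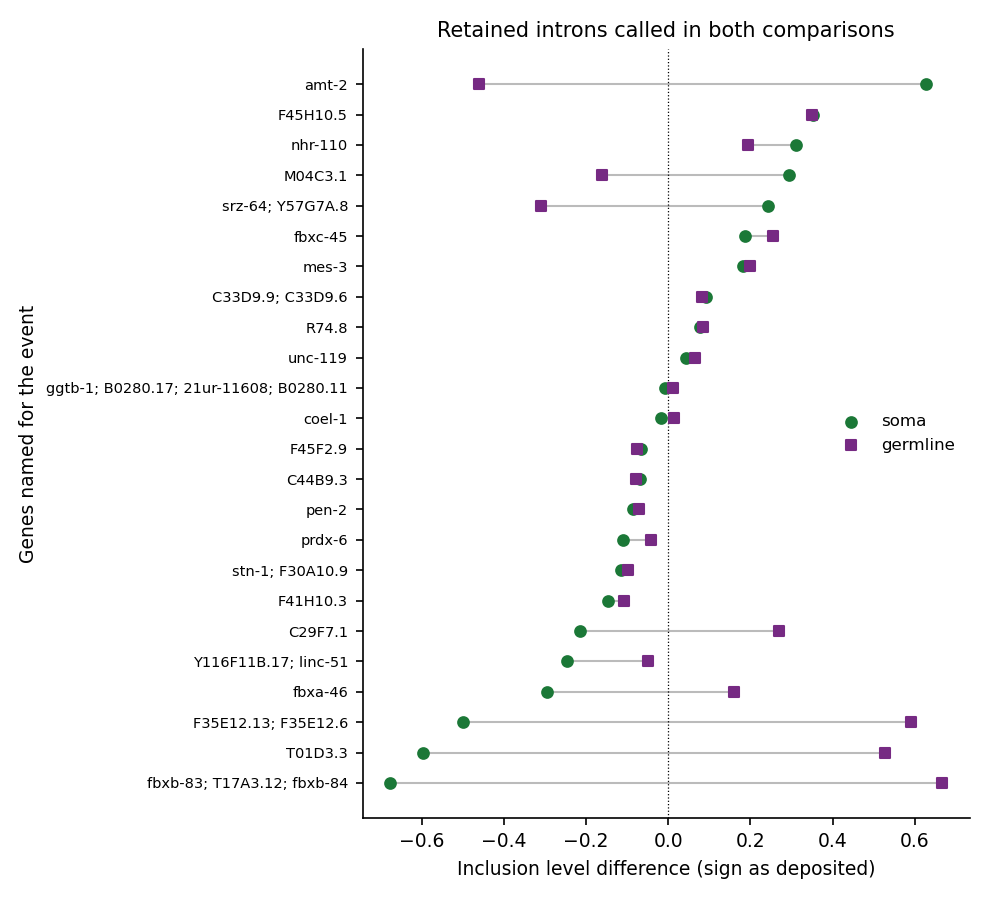
Inclusion level difference (horizontal axis, deposited sign) in the soma (green circles) and the germline (purple squares) for each of the 24 retained introns called in both, named by their genes and ordered by the soma value. Grey lines join the values of an event; 10 of the lines cross 0, among them amt-2 and the event of fbxb-83, T17A3.12 and fbxb-84.

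Sperm and oocyte calls overlapped with a smaller share of the depletion calls among retained introns than among all event types. Of the 283 soma calls, 21 were also called there (7.42%, or 10.9% of the sperm and oocyte calls), 8 with the same sign and 13 with the opposite sign. Over all types the shared calls were 31.8% of the soma and 31.9% of the sperm and oocyte calls. Of the 150 germline calls, 27 were (18%, or 14%), 11 with the same and 16 with the opposite sign, against 41.7% and 20.8% over all types. By type, the shared calls were 46.2% of the soma and 64.5% of the germline calls for alternative 3 prime splice sites. For alternative 5 prime splice sites they were 7.86% and 16.9%, for skipped exons 9.66% and 6.42%, and for mutually exclusive exons 0% and 9.09%. Over all types, 477 of 510 events shared with the soma and 304 of 332 shared with the germline had opposite signs. Of these opposite-sign events, 447 and 273 were alternative 3 prime splice sites. Among alternative 5 prime splice sites 9 of 11 and 10 of 15 were opposite, and among skipped exons 8 of 17 and 4 of 7. In all 3 comparisons 3 retained introns were called (0.539% of the 557), against 172 events of all types (5.56%). In the sperm and oocyte comparison alone 148 were called (26.6%), against 930 of all types (30.0%).

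Among called events, the range of the sperm and oocyte differences (-0.87 to 0.969) was wider than that of either depletion comparison. Positive values of 0.735 to 0.969 were listed for cisd-3.1 with M88.3 (0.969), D2045.9 with D2045.7 (0.95), syx-7 with fcp-1 (0.913), gpcp-2 (0.869), T06D8.9 (0.869), ani-1 (0.843), smg-1 (0.841), nhr-23 with cnnm-4 (0.792), pyp-1 (0.771) and ced-4 with C35D10.8 (0.735). The gene ani-1 encodes the cytokinesis scaffold anillin, smg-1 the kinase of nonsense-mediated decay and ced-4 the activator of the cell death protease. Of these, syx-7 with fcp-1 was called in the soma (-0.1, q = 0.0182), and gpcp-2 (0.361, q = 0.0468) and ced-4 with C35D10.8 (-0.237, q = 0.0164) were called in the germline. Negative values reached -0.87 in the event of T02C5.1 and igcm-3, -0.732 at ggtb-1 and -0.677 at Y32H12A.8, followed by F26F4.9 with F26F4.2 (-0.608), the palmitoyltransferase family gene dhhc-4 (-0.601), C35B1.2 (-0.544) and the calcium channel gene orai-1 (-0.525). F53C11.4 with F53C11.5 (-0.418), cdt-2 (-0.406) and B0495.8 (-0.288) completed the 10. The event at ggtb-1 was called in all 3 comparisons, but at only -0.009 in the soma and 0.011 in the germline.

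The list of spliceosome and splicing regulator genes held 8 retained intron events of 42 events of all types. None was called in the soma, where 52.2% of all retained introns were. In the germline 3 of the 8 were called (37.5%, against 27.9% of all retained introns), 2 positive and 1 negative. The SR protein gene rsp-6 had 0.017 in the germline (q = 0.0228) at the third of 4 introns, 439 bp long, the Sm protein gene snr-4 had 0.061 (q = 0.0122), and etr-1, a CELF-family regulator of splicing, had -0.148 (q = 0.0112). All 8 were called in the sperm and oocyte comparison (against 49.2% of all retained introns with a value), 2 positive and 6 negative, with a median of -0.0275. Besides those 3 genes (rsp-6 -0.013, snr-4 -0.03, etr-1 -0.228) they included rnp-1 (-0.055), rbm-5 (0.076) and rnp-6 (0.016). The RNA surveillance list held smg-1 alone, which has no value in either depletion comparison.

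The protein folding and turnover list had 15 retained intron events of 53 events of all types. In the soma 7 of 15 were called (46.7%, against 52.2% of all retained introns), 3 positive and 4 negative. In the germline 8 of 14 with a value were called (57.1%, against 27.9%), 6 positive and 2 negative. Beside the shared event of fbxb-83 and fbxb-84, the event of fbxa-188 and fbxa-189 had -0.368 in the soma (q = 8.38e-06) at the fifth of 9 introns, 45 bp long, and that of fbxa-9 and fbxa-48 had 0.205 in the germline (q = 0.00162). F-box genes have close copies in the genome, so reads may be assigned to the wrong copy. In the sperm and oocyte comparison 4 of 6 with a value were called (66.7%, against 49.2%), 3 positive and 1 negative. The positive ones were ubc-26 with ubc-15 (0.426), dnj-5 (0.343) and the proteasome receptor gene rpn-13 (0.619). The negative one was fbxc-45 (-0.058).

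Of 14 events in the chromatin and transcription list, 11 were called in the soma (78.6%, against 52.2% of all retained introns), 6 positive and 5 negative. In the germline 2 were called (14.3%, against 27.9%), both positive. Nuclear hormone receptor genes held most of those named, with nhr-152 at 0.393 (q = 0.000277) and, at another interval, 0.11, nhr-144 at 0.197 and nhr-50 at -0.037 in the soma. The histone methyltransferase family gene set-23 was called in the sperm and oocyte comparison only (0.066). Of the 6 events of the neuron and channel list 4 were called in the soma (66.7%, against 52.2% of all retained introns). All 4 were positive, as were 57.2% of all retained introns called in the soma. The 4 lay in the potassium channel genes twk-28 (0.496, q = 0.000169) and twk-24 (0.087), the acetylcholine receptor subunit gene acr-7 (0.058) and the neuropeptide gene nlp-7 (0.014). In the germline 2 of the 6 were called (33.3%, against 27.9%), acr-3 at 0.382 and unc-43 at -0.405. Neither twk-28 nor acr-7 passed in the germline (0.13 and -0.017).

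The remaining lists were small. Of all retained introns with a value, 52.2% were called in the soma, 27.9% in the germline and 49.2% in the sperm and oocyte comparison. In the soma 1 of 5 germline and oocyte events and 2 of 3 muscle and cytoskeleton events were called. So were 2 of 2 mitochondria and metabolism events with a value and 1 of 2 ribosomal protein and translation events. Of 5 germline and oocyte events, him-19 (0.184, q = 0.00029) and him-3 (-0.02, q = 0.0112), a meiotic chromosome axis gene, were called in the germline, and him-4, which encodes the extracellular protein hemicentin, in the soma (-0.232, q = 0.0334). An event that spans him-14, a meiotic recombination gene, and nos-2, a Nanos gene of the germline, had 0.436 in the sperm and oocyte comparison, and a second one had 0.041. In the muscle and cytoskeleton list pat-12 had 0.098 and the kinesin-like gene klp-3 had -0.033 in the soma, and the alpha-tubulin gene tba-2 had 0.709 in the sperm and oocyte comparison, with -0.004 and 0.005 in the soma and germline. The isocitrate dehydrogenase gene idh-2 (0.106) and the acyl-CoA dehydrogenase gene acdh-3 (-0.128) were called in the soma, and the ATP synthase gene atp-4 (0.051) in the sperm and oocyte comparison. Among ribosomal protein genes, the event of rpl-20 with cyc-2.1 had 0.46 in the soma (q = 0.00253), and rps-30 had -0.02 in the sperm and oocyte comparison. No gene of the sperm list had a retained intron event.

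Host genes had 1 retained intron event in 475 of 512 StringTie gene models, 2 in 29 and 3 in 8. Within a gene the signs could differ. The poly(ADP-ribose) glycohydrolase gene parg-1 had -0.177 at an interval and 0.274 and 0.248 at the others, all called in the soma. The 3 events of the MATH-domain cluster of math-27 were all positive in the soma (0.21, 0.178 and 0.157), as were those of Y71A12B.13 (0.567, 0.361 and 0.401). The model that covers max-2 and F18A11.5 had 0.081 and -0.2 in the soma and 0.356 in the germline. In sws-1 the event called in the germline had 0.117, and all 3 of its events were called in the sperm and oocyte comparison with 0.073, -0.04 and -0.073. The mitochondrial carrier gene slc-25A42 had 0.108, 0.106 and, with F43G9.4, 0.529 there. The T28A8 cluster had 0.073 in the germline (T28A8.5), and -0.178 and 0.034 at its other events in the sperm and oocyte comparison. Within parg-1, the math-27 cluster, Y71A12B.13 and sws-1 some of the intervals overlap, so those events can share reads.

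Of the 557 intervals, 218 had the outer edges of 2 neighbouring annotated exons, so that they correspond to an annotated intron with its flanking exons. A further 181 held an annotated intron without matching both edges. Of those that held no annotated intron, 58 lay inside a single annotated exon and 100 reached beyond any single exon. An annotated exon covered the whole interval, so that the retained form is annotated, in 190 events (34.1%). This share was 37.7% of the positive and 21.5% of the negative soma calls, and 38.0% and 33.8% in the germline. The intervals were 134 to 3473 bp long with a median of 552 bp. Of all intervals, 109 (19.6%) overlapped at least 2 protein-coding genes and 43 (7.72%) overlapped coding genes on both strands. The sources used here do not say whether reads were counted by strand, so in these events the reads of neighbouring or antisense genes cannot be told apart.

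For 193 intervals a single annotated intron was identified. These introns had a median length of 62 bp (range 39 to 1340). In the coding sequence lay 164 of them, 7 in the 5 prime UTR, 7 in the 3 prime UTR and 15 in transcripts without a coding sequence. Of the 193, 187 are introns of protein-coding genes and were set beside all 109516 annotated introns of such genes. Their median length was 65 bp, against 68 bp, and 110 (58.8%) were at most 100 bp, against 55.8%. The share in the coding sequence was 87.7%, against 96.6%, and 9 of the 187 lay in transcripts without a coding sequence. Of the 164, 72 (43.9%) had a length that is a multiple of 3, which keeps the reading frame if no stop codon is met, against 33.1% of annotated coding introns. By sign this share was 20 of 44 among positive and 10 of 39 among negative soma calls, and 7 of 21 and 9 of 16 in the germline. Of the 187, first introns made up 11.8% and last introns 12.3%, against 19.2% and 18.5% of annotated introns. Among the 193, median lengths were 72 bp and 56 bp for positive and negative soma calls (56 and 44 introns). They were 104 bp and 51 bp in the germline (28 and 16 introns), and 54 bp and 123 bp in the sperm and oocyte comparison (32 and 37 introns).

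**Figure D5:**
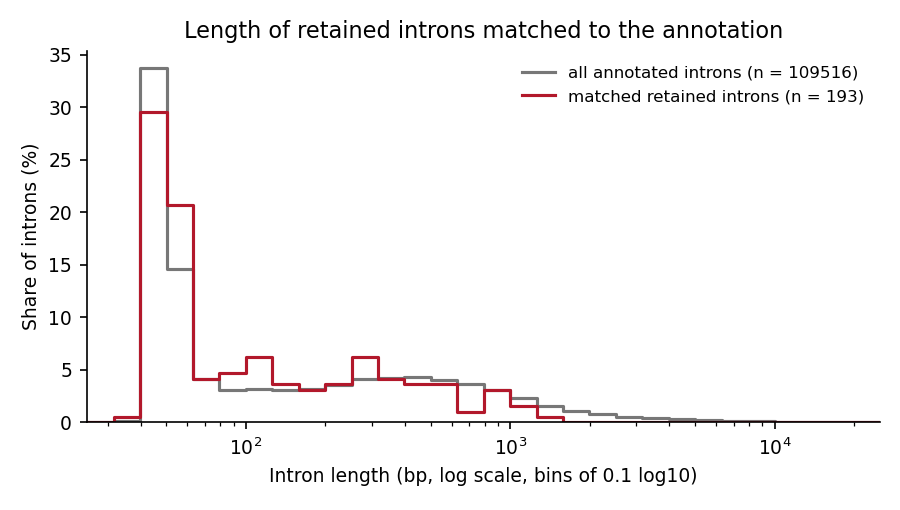
Share of introns (vertical axis, percent) by length in bp (horizontal axis, log scale) for the 193 retained introns matched to a single annotated intron, in red, and for all 109516 annotated introns of protein-coding genes, in grey. Both have their peak in the bin that starts at 1.6 on the log10 scale, with medians of 62 and 68 bp. Of the 193, the 187 in protein-coding genes have a median of 65 bp.

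Retained introns were found on all chromosomes, from 61 on chromosome X to 134 on chromosome V. Chromosome V held 24.1% of them, against 20.7% of all events listed and 21.6% of annotated introns, and chromosome X held 11%, against 10.4% and 17.2%. On chromosome X, 44 of the 61 events were called in the soma (72.1%, against 52.2% of all retained introns), and 14 of 60 with a value in the germline (23.3%, against 27.9%). In the sperm and oocyte comparison 29 of the 61 had a value and 6 were called (20.7%, against 49.2%). Of the soma calls there, 24 were positive.

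Of the 557 events, 122 (21.9%) overlapped a listed event of another type by at least 1 base, 67 of them an alternative 3 prime splice site, 55 an alternative 5 prime splice site, 34 a skipped exon and 1 a mutually exclusive exon. T10B10.4 and F45H10.5, for example, overlap alternative 5 prime splice site events. Overlapping events can count the same reads.

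The host genes of 30 events, 27 genes, were also among the 882 genes of the authors' deposited table of expression, 525 of which (59.5%) had a Benjamini-Hochberg adjusted p under 0.05 in the soma and 555 (62.9%) in the germline. Levels there are group means in FPKM, a unit that accounts for transcript length and sequencing depth. Its notes name the soma control as the base of the germline fold change, but all 882 germline values lie within 0.1 of the log2 ratio to the germline control, and 76 within 0.1 of that to the soma control. In the soma 9 called events lay in genes with higher and 6 in genes with lower expression. Of the former 7 had a negative difference and 2 a positive one, and of the latter 4 and 2. Of all 283 retained introns called in the soma, 121 were negative and 162 positive. In the germline 8 called events lay in 6 genes with higher expression, 6 positive and 2 negative, and 1 positive event lay in a gene with lower expression. The positive ones include the overlapping events of T05A7.13 (0.427, 0.299 and 0.216). Of all 150 retained introns called in the germline, 79 were positive and 71 negative. A link between sign and expression was not tested.

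The group means of npr-7 in the authors' deposited table were 1.37 FPKM in soma controls, 5.26 in soma-depleted, 1.92 in germline control and 0.987 in germline-depleted worms, with a soma log2 fold change of 1.95 (Benjamini-Hochberg adjusted p = 3.6e-11) beside its soma splicing difference of -0.583. For btb-17 the authors' deposited table gave 22.5, 54.9, 17.5 and 19.2 FPKM in the same order, with a soma log2 fold change of 1.28 (Benjamini-Hochberg adjusted p = 3.8e-13). Expression was thus higher in the soma-depleted group than in the other 3 groups for both genes. The soma splicing differences of F11F1.1 (-0.432), fbxa-189 (-0.368), linc-103 (-0.473), ZK546.19 (-0.305) and F45D11.1 (-0.124) were likewise negative, and the authors' deposited table gave soma log2 fold changes of 1.04, 1.21, 1.01, 1.34 and 1.32 for their genes. F41C6.4 had a positive difference (0.208) with a log2 fold change of 1.12 there, and unc-119 had 0.043 with 1.35.

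Among soma hosts with lower expression, B0348.2 had a splicing difference of -0.318, and the authors' deposited table gave it 10.9 FPKM in soma controls, 3.23 after depletion and a log2 fold change of -1.75. F41E6.5 (0.039 with -1.07), F17C11.13 (0.059 with -1.03), Y34F4.4 (-0.104 with -1.01), T01D3.3 (-0.597 with -0.61) and mec-18 (-0.225 with -0.50), a gene of the touch neurons, were the others in the authors' deposited table.

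In the germline, T05A7.13 had 14.9 and 17.5 FPKM in soma controls and soma-depleted worms and 5.06 and 17.4 in germline controls and germline-depleted worms in the authors' deposited table, so its germline control mean was the lowest. For Y54G2A.36 the germline-depleted mean was the highest, at 192 FPKM, against 36.2 in its control and 43 and 52.2 in the soma groups of the authors' deposited table (germline log2 fold change 2.41). F56F4.8 (splicing difference -0.113, log2 fold change 1.62), ttr-52 (0.044 and 1.14), fbxb-83 (0.667 and 1.18) and unc-119 (0.066 and 0.47) were the other hosts with higher expression in the authors' deposited table. T01D3.3 had the lower expression, with 33.0 FPKM in germline controls and 13 after germline depletion, against 16.6 and 10.9 in the soma groups of the authors' deposited table.

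The other hosts were called in splicing and expression in different comparisons, or in expression with a splicing call in the sperm and oocyte comparison only. Soma splicing calls with no soma expression call were found for fbxa-186 (0.303), mec-14 (0.292), C07B5.2 (0.441), F19F10.1 (-0.438) and T05E12.3 (0.07), for which the authors' deposited table gave germline log2 fold changes of -1.35, -1.18, 1.14, 1.26 and 1.06. Germline splicing calls of fbxa-172 (-0.218) and linc-103 (0.22) stood beside soma values of -1.18 and 1.01 on the log2 fold change scale, per the authors' deposited table. C09G4.4 with cks-1 was called in the sperm and oocyte comparison alone (-0.043), and the germline log2 fold change of C09G4.4 in the authors' deposited table was 1.15.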

How the data were processed

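Poly(A)+ RNA from 11 samples in 4 groups was sequenced. The authors deposited tables of comparisons and group means, not counts per sample, so no model could be fitted and depth per sample is unknown. The submitters' processing notes list DESeq2 1.26.0, SAMtools 1.7, STAR 2.7.2a, cutadapt 1.18 and Trim Galore 0.6.0, and build WBcel235/ce11. They give no roles, and the splicing caller is not given. Per the file headers, the authors deposited q-values (false discovery rate p-values), inclusion level differences (a score from -1 to 1), StringTie gene models, FPKM group means, log2 fold changes, adjusted p-values and a mean count signal over all samples.

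All rows of type RI were taken, counted by q-value and sign, and set beside all event types. No test over the events was made. Listed starts plus 1 matched an annotated exon start in 508 of 557 events and the start as listed in 0, so coordinates are counted from 1; listed ends matched in 386. Annotated introns were read from Ensembl release 115, on WBcel235, whereas the files use release 97. Of 657 names given for the events, 596 matched that annotation. The intron matching was tested on simulated data. Named events followed a rule of up to 10 largest differences per comparison and sign, 5 smallest q-values in the soma and germline, up to 15 events called in both, all hosts in the expression table, genes with 3 or more events and up to 6 members of each gene list. Members, lists and the rule were chosen with earlier results of these data known. Alternatives were a q-value under 0.01, a minimum difference of 0.1 or 0.2, each gene once, and annotated introns only. Computations used Python 3.11.15, pandas 2.3.3, numpy 2.4.6 and matplotlib 3.10.9. No sequence is shown.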

Additional observations from a re-analysis of the deposited data

How the results depend on the processing

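No paired analysis was possible because the tables hold comparisons and group means, not samples, and for the same reason no replicate could be left out. Of the 283 soma, 150 germline and 24 shared calls, a q-value under 0.01 left 157, 71 and 9, a minimum difference of 0.2 left 144, 62 and 7, and annotated introns only left 115, 48 and 8. A minimum difference of 0.1 left 13 shared calls. The 193 sperm and oocyte calls became 109 and 73 at minimum differences of 0.1 and 0.2, where the positive share was 73.4% and 76.7%, and 81 with annotated introns only, where it was 46.9%. These alternatives keep fewer events by construction. Under the alternatives run, the positive share was 54.8% to 58.6% in the soma and 48.5% to 58.3% in the germline. Depth is unknown, so what it limits cannot be given.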

Other observations

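Genes that act in RNA processing outside the lists also had retained intron events; they were picked after their values were seen. The kinase gene spk-1, whose product phosphorylates SR proteins, had 0.111 in the soma (q = 0.0136) and 0.115 in the sperm and oocyte comparison. The mRNA export genes nxf-1 and aly-3 had -0.183 (q = 0.000126) and 0.027 (q = 0.0364) in the soma, and aly-3 had -0.052 in the sperm and oocyte comparison. In tos-1, a gene used as a reporter of splicing, 2 events were called in the germline, with 0.048 (q = 0.000497) and 0.068 (q = 0.0379), and neither passed in the soma (-0.001 and -0.097). The spliceosomal gene snu-23 had 0.341 in the sperm and oocyte comparison only.

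A list of chemoreceptor genes, also chosen after values were seen, held 16 retained intron events of 39 events of all types. In the soma 11 were called (68.8%, against 52.2% of all retained introns), 7 positive and 4 negative. In the germline 6 were called (37.5%, against 27.9%), 1 positive and 5 negative. In the sperm and oocyte comparison 3 of the 16 had a value and none was called (49.2% of all retained introns with a value were); the q-values are the authors', and no other test was run.

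A large difference did not always come with a small q-value. The soma difference was -1 at srh-76, 0.86 at the event of let-383 and T21G5.2 and 0.565 at srh-39, each with a soma q-value of 1. In all, 29 events not called in the soma and 32 not called in the germline had a size of at least 0.2.

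The deposited column on relative enrichment in sperm or oocyte followed the signs. Of 27 retained introns marked Oocyte Enriched, 26 had opposite signs in the depletion and the sperm and oocyte comparisons, taking the soma value where it was called and the germline value otherwise, and all 18 marked Sperm Enriched had the same sign.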
